A study of Homo sapiens with 6 samples.

Results

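The genes described here are the cancer-testis families GAGE, XAGE and MAGE in K1, an established line of human papillary thyroid carcinoma, after its microRNA miR-31 was targeted. They were taken by name: of 986 genes in the authors' deposited table, 9 have a symbol that starts with GAGE (4 genes), XAGE (1) or MAGE (4). RNA sequencing was done on 3 miR-31 KO libraries, from K1 cells given a guide RNA against miR-31, and on 3 control libraries, from K1 cells given a control transfection, all cultured in serum-containing DMEM. The labels do not say whether the KO cells were 1 clone or a mixed population, nor whether the replicates were grown apart, so a p-value here reflects variation from library to library that may be technical only. Any other difference between the KO and the control cells cannot be told apart from the targeting of miR-31, and miR-31 is not among the listed genes, so its loss could not be checked in this table. The table names no unit, and its values are not whole. They are taken here as normalized counts, estimated read counts per gene scaled between libraries by the authors. Very small values, such as 0.000162 for TDRD9 in control replicate 2, do not follow from scaling whole reads alone. Reads may thus have been counted in fractions, and how they were divided among genes is not given. Fold changes are miR-31 KO over control on the log2 scale. The 986 listed genes were already selected by the authors, at an adjusted p below 0.05 and a log2 fold change of 1 or more in either direction, and they are 5.87% of the 16806 genes tested. A family member that is not listed was therefore not analysed here. Normalized counts summed over the listed genes came to between 545354 and 943360 per library, and sequencing depth is unknown.

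Cancer-testis genes are active in the male germ line and silent in most other adult tissues, where methylation of CpG sites in their promoters helps to keep them off, and they reappear in many tumours. GAGE and XAGE genes are related and encode small acidic proteins whose function is poorly understood. MAGE proteins share a conserved domain through which many of them bind RING-type ubiquitin ligases and change what those ligases act on. MAGED4B belongs to the second class of MAGE genes, which is not restricted to germ cells, so the name cancer-testis applies to it less strictly than to the other members. The thyroid markers TG, TSHR, PAX8, NKX2-1 and FOXE1 were not among the listed genes, so the label of the line could not be checked in this table.

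In miR-31 KO 5 of the 9 genes were higher and 4 were lower, where 60.1% of all listed genes were higher and 39.9% were lower. The direction did not follow the family name within MAGE. Within GAGE the exception was GAGE12F alone, whose higher mean came from KO replicate 2. The higher genes were XAGE2, 3 MAGE genes (MAGEA1, MAGEC2 and MAGED4B) and 1 GAGE copy (GAGE12F), and the lower genes were 3 GAGE copies (GAGE2A, GAGE13 and GAGE12G) and MAGEA3. The median log2 fold change was 1.50 for the members and 1.27 for all listed genes, and the median absolute value was 3.10 and 1.89. The 3 KO and the 3 control values did not overlap in 7 of the 9 genes, against 92.6% of all listed genes. In 2 of the 9, XAGE2 and MAGEA1, all control libraries were listed at 0, which held for 6.90% of all listed genes.

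Promoter sequences show how alike some of these genes are and how different others. RefSeq (GRCh38.p14) gave a window of 250 bases before to 50 bases after the start for 8 of the 9 members, all on the X chromosome. Shown 5′ to 3′ on the gene's own strand, with CpG sites in capitals, are the windows of the 2 genes with the smallest adjusted p among the lower members and of the 2 with the smallest adjusted p among the higher members. They are GAGE2A (chrX:49589246-49589545, plus strand), MAGEA3 (chrX:152698544-152698843, plus strand), XAGE2 (chrX:52368771-52369070, plus strand) and MAGEC2 (chrX:142205241-142205540, minus strand).
GAGE2A: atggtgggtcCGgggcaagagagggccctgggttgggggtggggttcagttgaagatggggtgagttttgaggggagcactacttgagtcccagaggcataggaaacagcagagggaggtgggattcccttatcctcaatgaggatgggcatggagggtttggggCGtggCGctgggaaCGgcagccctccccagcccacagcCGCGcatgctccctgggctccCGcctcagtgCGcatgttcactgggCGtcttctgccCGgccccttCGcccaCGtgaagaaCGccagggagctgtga
MAGEA3: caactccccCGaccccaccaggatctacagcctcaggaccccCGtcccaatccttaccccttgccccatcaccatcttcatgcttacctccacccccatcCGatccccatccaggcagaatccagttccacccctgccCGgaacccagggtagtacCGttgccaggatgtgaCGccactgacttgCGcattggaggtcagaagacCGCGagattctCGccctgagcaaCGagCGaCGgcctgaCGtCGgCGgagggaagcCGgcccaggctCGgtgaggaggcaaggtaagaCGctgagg
XAGE2: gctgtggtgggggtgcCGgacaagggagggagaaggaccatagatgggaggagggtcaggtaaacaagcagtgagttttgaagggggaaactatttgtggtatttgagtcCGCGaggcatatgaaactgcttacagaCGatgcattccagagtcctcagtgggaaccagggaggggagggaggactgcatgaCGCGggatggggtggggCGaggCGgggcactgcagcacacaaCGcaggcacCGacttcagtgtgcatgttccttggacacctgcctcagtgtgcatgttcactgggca
MAGEC2: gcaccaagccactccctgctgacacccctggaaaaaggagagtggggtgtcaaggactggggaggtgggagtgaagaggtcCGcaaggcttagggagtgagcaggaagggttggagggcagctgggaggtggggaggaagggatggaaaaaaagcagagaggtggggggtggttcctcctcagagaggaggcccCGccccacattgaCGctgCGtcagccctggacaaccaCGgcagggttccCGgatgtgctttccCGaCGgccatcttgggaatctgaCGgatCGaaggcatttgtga

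The window of GAGE12F, the GAGE copy listed as higher, had the same base as that of GAGE2A, the copy with the largest fall, at all 300 positions. The window of GAGE13 matched GAGE2A at 299 of 300 positions, and that of GAGE12G at 297 after alignment. Between GAGE2A and XAGE2 the match was 191 of 300, and between GAGE2A and MAGEA3 it was 162. CpG sites numbered 13 in each of the 4 GAGE windows, 19 in MAGEA3, 10 in XAGE2, 10 in MAGEC2 and 22 in the upstream of 2 annotated MAGED4B starts. The median over all 35116 promoter windows was 14 and over promoters of listed genes 16. The CpG counts of the higher and the lower members thus overlapped, and both lie around the median of all promoters. The GC box GGGCGG, searched on both strands, occurred in MAGEC2 and MAGED4B, and in 45.0% of all windows. The sequence CCGGAA, the core of an ETS factor motif, also searched on both strands, occurred in MAGEA3 alone of the 8 members with a window, and no member held both sequences; the 2 were chosen with the direction of the members known. CCGGAA was present in 17.2% of all windows. A match is a description of the letters in these windows.

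All 9 genes lie on the X chromosome (GENCODE release 29, GRCh38, matched by symbol). The GAGE copies stand in a tandem array between 49303669 and 49608536, which holds 13 annotated protein-coding GAGE genes, 4 of them listed: GAGE13 at 49331616 to 49338952, GAGE12F at 49551278 to 49568218, GAGE12G at 49570434 to 49577754 and GAGE2A at 49589529 to 49596827, all on the plus strand. MAGED4B (52061827 to 52069248, minus strand, overlapping SNORA11E) and XAGE2 (52369030 to 52375680, plus strand) follow on the same arm. MAGEC2 (142202345 to 142205290, minus strand), MAGEA3 (152698752 to 152702347) and MAGEA1 (153179285 to 153183880), the last pair on the plus strand, lie on the other arm. Of 5 XAGE genes 1 was listed, of 12 MAGE-A genes 2, of 3 MAGE-C genes 1, of 4 MAGE-D genes 1, and of 11 MAGE-B genes none, where 5.87% of all tested genes were listed. At that share the subfamily counts are too small to read, and which of these genes the authors tested is not given. In all, 55 listed genes lie on X, 31 higher and 24 lower; without the 9 members it was 26 and 20. The listed gene nearest to MAGEA3 that is no member was CSAG1, 25.1 kb away, and it too was lower (log2 fold change -1.98). The nearest to MAGEA1 was ZNF185, 206 kb away, with a log2 fold change of -1.94 while MAGEA1 was higher. For MAGEC2 it was SPANXD, 504 kb away, also of opposite direction (-1.99).

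GAGE2A had the largest fall of the families. Its normalized counts were 2.35, 0 and 0.854 in miR-31 KO replicates 1, 2 and 3, against 141, 107 and 228 in control replicates 1, 2 and 3. The KO libraries were near or at 0 and every control library was above 100, with no overlap. The authors' deposited table gives a log2 fold change of -7.17 and an adjusted p of 1.56e-30, the 13th largest absolute fold change among the 986 genes. In bulk RNA, fewer cells that express a gene and less RNA per cell cannot be told apart.

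GAGE13 fell less. It had 7.46, 10.6 and 2.38 normalized counts in KO replicates 1 to 3, against 38.6, 25.05 and 16.7 in control replicates 1 to 3. The groups did not overlap, and the highest KO library lay at 10.6 and the lowest control at 16.7. The authors' deposited table gives -1.96 on the log2 scale with an adjusted p of 0.00488. GAGE12G had 22.2, 8.98 and 25.6 in KO replicates 1 to 3, against 75.5, 100.2 and 23.4 in control replicates 1 to 3. Control replicate 3 lay below KO replicate 3, so the groups overlapped, and the log2 fold change in the authors' deposited table was -1.80 with an adjusted p of 0.00876.

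GAGE12F was listed as higher, and the authors' deposited table gives it a log2 fold change of 3.10 at an adjusted p of 0.0490, close to the selection threshold of 0.05. It had 5.25, 85.5 and 1.75 normalized counts in KO replicates 1 to 3, against 2.21, 1.00 and 6.91 in control replicates 1 to 3. KO replicate 2 stood apart, and the other two KO libraries lay within the range of the controls. Without KO replicate 2 the mean was 3.50 in KO and 3.37 in control, a ratio of 1.04, where all 3 KO libraries gave a ratio of means of 9.14.

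**Figure D1:**
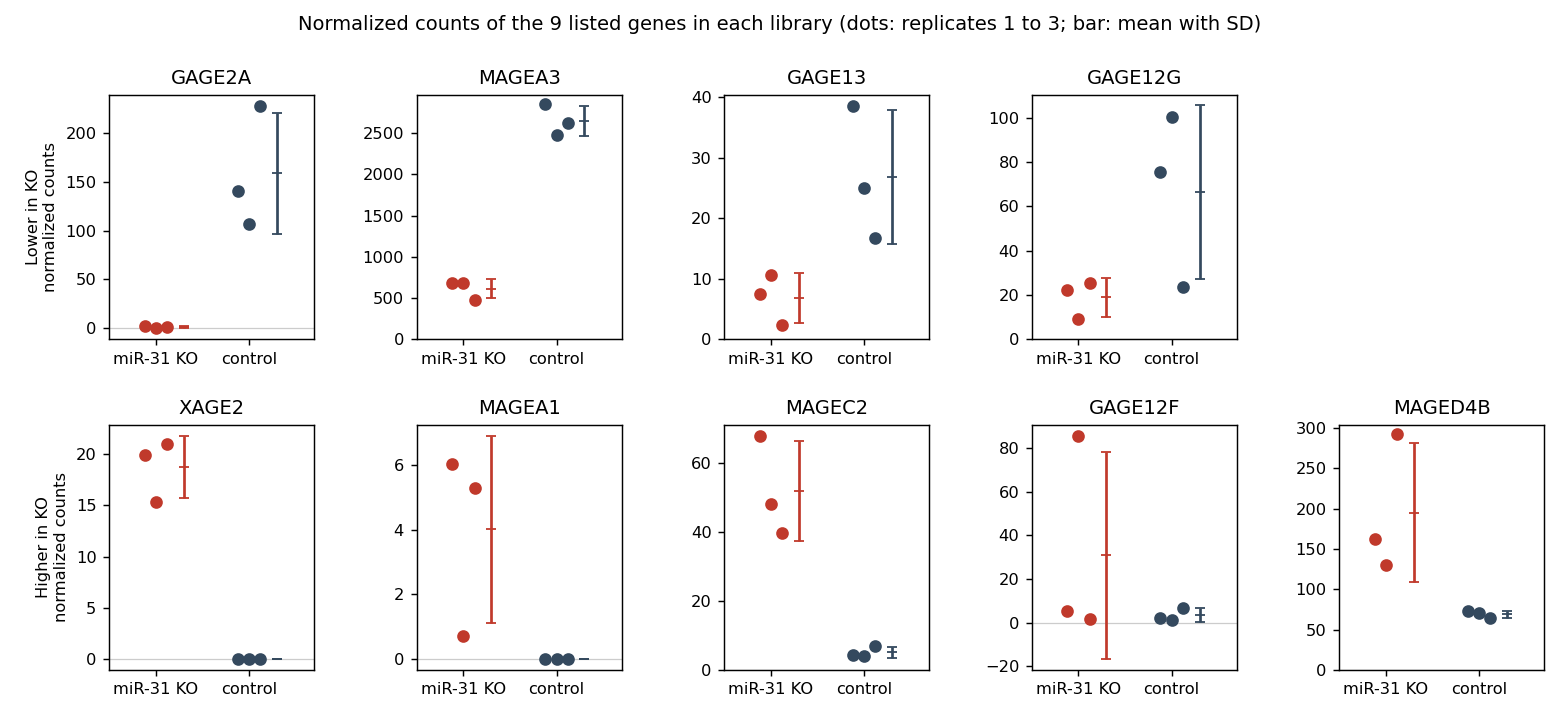
Normalized counts (vertical axes, linear and different for each gene) of the 9 genes in miR-31 KO (left, red) and control (right, dark) libraries. Dots are replicates 1 to 3 and the bar gives the mean with its SD (n = 3). Only GAGE12G and GAGE12F overlap between groups, and the SD bar of GAGE12F reaches below 0 because KO replicate 2 stands at 85.5 above the other two.

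The GAGE copies share most of their sequence, so reads can be assigned to 1 copy or another or divided among them. How the authors assigned such reads is not given in the sources used here. Each member's longest coding transcript (GENCODE release 29) was cut into windows of 50 bases, and windows that occur in a transcript of another gene were counted. The share was 85.2% for GAGE2A, 92.9% for GAGE13, 96.1% for GAGE12F and 100% for GAGE12G, and for each copy the matches included the 12 other GAGE genes. With windows of 100 bases it was 53.4% for GAGE2A, 80.5% for GAGE13, 95.7% for GAGE12F and 100% for GAGE12G. GAGE2A thus kept the most sequence of its own among the 4 copies. In the annotation GAGE2A also overlaps GAGE1, and GAGE12F overlaps GAGE12E, each on the same strand.

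The summed counts of the 4 listed copies do not depend on how reads were divided among those 4. They can still depend on how reads were divided between the listed and the unlisted GAGE genes. The sum was 37.3, 105.1 and 30.6 normalized counts in KO replicates 1 to 3, against 257, 233 and 275 in control replicates 1 to 3. The highest KO library stood below the lowest control. The means were 57.7 ± 41.2 in KO and 255 ± 20.9 in control (SD, n = 3 each), so control was 4.43 times KO, or 7.52 times without KO replicate 2. The 4 copies were listed because each passed the authors' selection, so the sum is given with no test, and the 9 annotated GAGE genes that are not listed are not in it.

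Within this sum the share assigned to GAGE2A was smaller in KO, where the largest share in each library went to another copy. GAGE2A made up 6.31%, 0% and 2.79% of the sum in KO replicates 1 to 3, against 54.8%, 45.9% and 82.9% in control replicates 1 to 3. In KO replicates 1 and 3 the largest share was that of GAGE12G, 59.6% and 83.7%, and in KO replicate 2 that of GAGE12F, 81.4%. GAGE12G held 29.4%, 42.9% and 8.52% of the sum in control replicates 1 to 3. Its mean count was nevertheless lower in KO, at 18.9, than in control, at 66.4. The control libraries also differed among themselves: where the GAGE12G share was lowest, in replicate 3, the GAGE2A share was highest. The sum varied less between control libraries (SD 20.9) than GAGE2A (SD 62.5) or GAGE12G (SD 39.2) did.

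**Figure D2:**
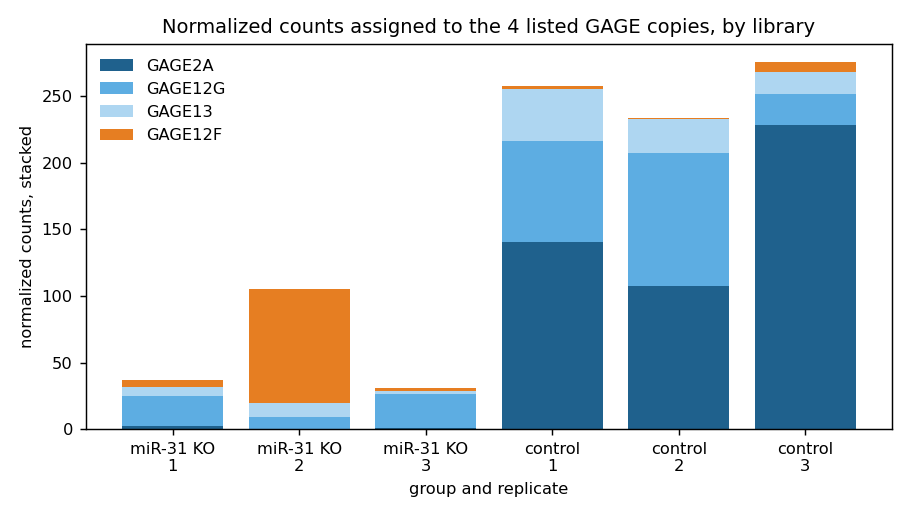
Normalized counts (vertical axis, from 0) assigned to the 4 listed GAGE copies, stacked, for the 3 miR-31 KO libraries (left) and the 3 control libraries (right). The sums lie between 30.6 and 105.1 in KO and between 233 and 275 in control, and the orange GAGE12F segment fills 81.4% of KO replicate 2.

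XAGE2, a relative of the GAGE genes that is normally found in testis and placenta, went the other way. It had 19.9, 15.3 and 21.0 normalized counts in KO replicates 1 to 3 and was listed at 0 in all 3 control libraries. The 3 KO libraries were close to one another, with a mean of 18.8 ± 3.04 (SD, n = 3). The log2 fold change of 7.25 in the authors' deposited table, with an adjusted p of 2.26e-09, is fitted against values of 0 and gives no measured ratio. None of the 50-base windows of the XAGE2 transcript occurred in another gene, so its reads are not shared with the GAGE copies at that length. The KO libraries with XAGE2 counts thus had at most 2.35 of GAGE2A, and the control libraries, where GAGE2A exceeded 100, were listed at 0 for XAGE2.

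MAGEA3, which had the highest level per kilobase of transcript of the 9 genes in both groups, fell. MAGEA3 protein binds the ubiquitin ligase TRIM28 and with it promotes degradation of the energy sensor AMPK. It had 684, 681 and 478 normalized counts in KO replicates 1 to 3, against 2849, 2481 and 2618 in control replicates 1 to 3. The means were 615 ± 118 in KO and 2649 ± 186 in control (SD, n = 3 each), with a ratio of control to KO of 4.31. Its log2 fold change in the authors' deposited table was -2.11 and its adjusted p 2.46e-44, the 25th smallest in the table. MAGEA6, which is not listed, shares 54.5% of the 50-base windows of MAGEA3, so part of this signal could be assigned to either gene.

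MAGEC2, which also binds TRIM28, rose. It had 67.8, 48.1 and 39.6 normalized counts in KO replicates 1 to 3, against 4.36, 4.01 and 6.89 in control replicates 1 to 3. The KO mean of 51.8 ± 14.4 was 10.2 times the control mean of 5.09 ± 1.57 (SD, n = 3 each), and the lowest KO library lay well above the highest control. In the authors' deposited table the log2 fold change was 3.32 with an adjusted p of 1.68e-10. Of its 50-base windows 0.0515% occurred in another gene, and that gene belongs to none of the 3 families.

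MAGEA1, the founding member of the MAGE family and a known tumour antigen, had 6.03, 0.691 and 5.31 normalized counts in KO replicates 1 to 3 and was listed at 0 in every control. These are low values, and KO replicate 2 was below 1. In the authors' deposited table its log2 fold change was 5.06, fitted against values of 0, with an adjusted p of 0.0327. Of its 50-base windows 0.662% occurred in another gene, MAGEA4. MAGEA1 and MAGEA3, both of the MAGE-A group, were listed in opposite directions.

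MAGED4B had 163, 130 and 293 normalized counts in KO replicates 1 to 3, against 72.4, 70.1 and 63.9 in control replicates 1 to 3. All KO libraries were above all controls, and KO replicate 3 was the highest. For MAGED4B the authors' deposited table gives a log2 fold change of 1.50 and an adjusted p of 8.37e-05. The ratio of means was 2.83, and 2.12 without KO replicate 3. Every window of its transcript, at 50 and at 100 bases, also occurs in MAGED4, so these counts cannot be told apart from MAGED4.

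**Figure D3:**
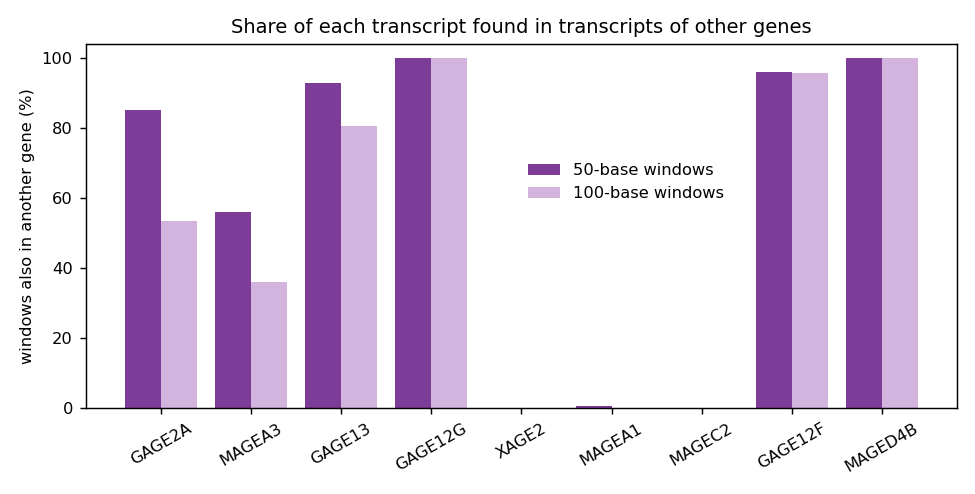
Percent of windows of 50 (dark) and 100 (light) bases in each member's longest coding transcript that also occur in a transcript of another gene (vertical axis, 0 to 100%). Genes are ordered with the 4 lower members on the left and the 5 higher members on the right. XAGE2, MAGEA1 and MAGEC2 stand at or near 0, while GAGE12G and MAGED4B stand at 100%.

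Per kilobase of the longest coding transcript, the order of levels differed between the groups. In KO, MAGEA3 led with 349 ± 67.0 normalized counts per kb, followed by MAGED4B with 74.5 ± 32.9 (SD, n = 3 each). GAGE12F (52.7 ± 81.0), GAGE12G (35.9 ± 16.7), XAGE2 (30.3 ± 4.92), MAGEC2 (26.0 ± 7.25) and GAGE13 (12.8 ± 7.80) came next per kb in KO, with ranges that overlap between neighbours. MAGEA1 (2.34 ± 1.69) and GAGE2A (2.02 ± 2.26) were last per kb and overlapped too. In control the order per kb was MAGEA3 with 1504 ± 106, GAGE2A with 301 ± 118, GAGE12G with 126 ± 74.3, GAGE13 with 50.5 ± 20.9 and MAGED4B with 26.3 ± 1.69. GAGE12F (5.77 ± 5.33) and MAGEC2 (2.56 ± 0.791) were last per kb in control before XAGE2 and MAGEA1, listed at 0. Of these neighbours in control, GAGE12G and GAGE13 overlapped in range, as did GAGE12F and MAGEC2. GAGE2A was thus second of 9 per kb in control and last in KO.

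miR-31 acts by pairing of its seed with 3′ UTRs, so the members' 3′ UTRs were searched for seed sites. The mature RNA miR-31-5p (RefSeq, GRCh38.p14, chromosome 9 from 21512158 to 21512178, minus strand) is shown with the seed, bases 2 to 8, in capitals. Below it are the sites in MAGEA3 and MAGEA1, with the 7 bases that pair with the seed in capitals.
hsa-miR-31-5p: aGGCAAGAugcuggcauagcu
MAGEA3 site: gatagttgatTCTTGCCttgtacctca
MAGEA1 site: gatagtcaatTCTTGCCttatacctca

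A site (TCTTGCC, or CTTGCCA with the adenine opposite base 1) was present in 2 of the 9 members, MAGEA3 and MAGEA1, in the longest annotated 3′ UTR. The share of genes with a site was 19.4% of 955 listed genes and 19.2% of 19133 genes. The sites lie at base 453 of 570 in MAGEA3 and base 441 of 561 in MAGEA1. MAGEA3, with a site, was lower in miR-31 KO, and MAGEA1, with a nearly identical site, was listed as higher. XAGE2, MAGEC2 and the 4 GAGE copies had no such site, and only the miR-31-5p seed was searched. A match is a description of the sequence and no measure of repression.

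A limma refit of the deposited values called 2 of the 9 members higher (XAGE2 and MAGEC2) and 2 lower (GAGE2A and MAGEA3), where it called 28.2% of listed genes higher and 17.1% lower. The refit estimates the spread from genes that the authors had already selected and is no genome-wide test. Its log2 fold changes, with limma's adjusted p in brackets, were -6.37 for GAGE2A (0.00128), -2.12 for MAGEA3 (0.00176), 4.29 for XAGE2 (0.00177) and 3.11 for MAGEC2 (0.00616). The other 5 members kept their direction without passing in it. For 3 of them the log2 fold change stayed close to the deposited value, at 1.40 for MAGED4B (limma adjusted p of 0.0756), -1.93 for GAGE13 (0.213) and -1.65 for GAGE12G (0.509). It was smaller for MAGEA1, at 2.08 (limma adjusted p of 0.211), whose controls at 0 make it depend on the pseudocount, and for GAGE12F, at 1.62 (adjusted p of 1). The sizes for XAGE2, whose controls are at 0 too, and for GAGE2A also depend on it. With a pseudocount of 0.1 the refit gave 7.55 for XAGE2 and -7.94 for GAGE2A. The limma call of MAGEC2 was lost when KO replicate 1 or KO replicate 2 was left out, with adjusted p-values of 0.0578 and 0.0536, while its log2 fold change was 2.91 and 3.15. Over the listed genes KO replicate 3 and control replicate 1 stood farthest from the other libraries of their group, by a mean absolute log2 distance of 0.675 for KO replicate 3 (0.506 and 0.523 for the other KO libraries) and 0.615 for control replicate 1 (0.502 and 0.472 for the other controls). Over the 9 members the farthest were KO replicate 2, at 1.29, and control replicate 3, at 0.669. Without KO replicate 3 and control replicate 1 the same number of members passed, 2 higher and 2 lower, and GAGE12F was the 1 member whose groups still overlapped.

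**Figure D4:**
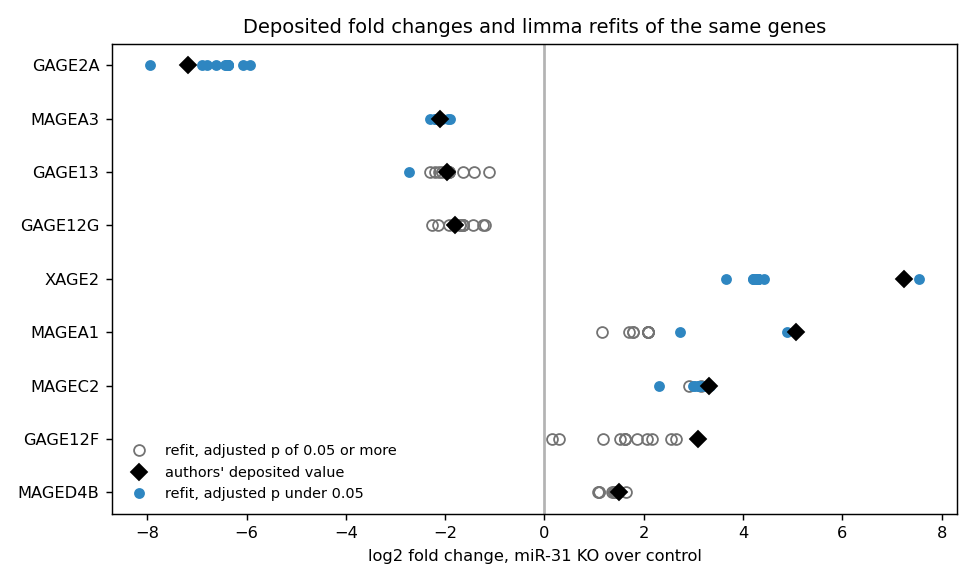
Log2 fold change (horizontal axis, miR-31 KO over control) of the 9 genes in the authors' deposited table (diamonds) and in up to 12 limma refits (circles, filled where the adjusted p was under 0.05). No refit crosses 0, GAGE2A, MAGEA3 and XAGE2 are filled in every refit, and GAGE12F, GAGE12G and MAGED4B in none.

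Other cancer-testis genes were taken from lists written with earlier results of these data known. Of 61 further cancer-testis genes of X, 3 were listed, 1 higher and 2 lower, and of 54 autosomal ones 7 were listed, 1 higher and 6 lower. Beside these counts, 5.87% of all tested genes were listed, and which genes of the lists the authors tested is not given. Together 8 of these 10 listed genes were lower, where 39.9% of all listed genes were. PRAME, an antigen that serves in a ubiquitin ligase complex, had 2.31, 0 and 0 normalized counts in KO replicates 1 to 3, against 8.75, 11.0 and 14.8 in control replicates 1 to 3. DMRT1, a transcription factor of the testis, averaged 4.41 ± 3.17 in KO and 22.1 ± 2.26 in control, and TPTE, a testis phosphatase homologue, 77.6 ± 9.09 in KO and 172 ± 22.0 in control (SD, n = 3 each). CSAG1, 25.1 kb from MAGEA3, averaged 2.57 ± 0.942 in KO and 10.5 ± 2.84 in control, and the sperm protein gene SPANXD 3.13 ± 3.58 in KO and 12.9 ± 4.12 in control. SPANXN4 had 4.95, 0 and 8.09 in KO replicates 1 to 3 and was listed at 0 in every control. Log2 fold changes in the authors' deposited table were -3.89 for PRAME, -2.28 for DMRT1, -1.15 for TPTE, -1.98 for CSAG1, -1.99 for SPANXD and 5.14 for SPANXN4. The SPANXN4 value is fitted against values of 0, and its groups overlapped because KO replicate 2 was at 0 too.

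**Figure D5:**
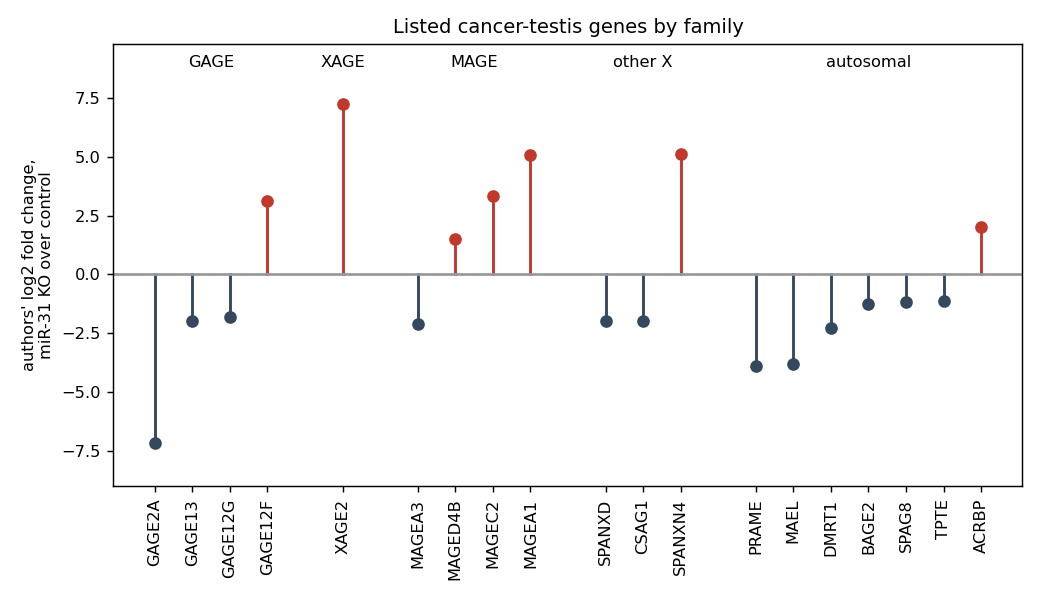
Deposited log2 fold change (vertical axis, miR-31 KO over control) of each listed cancer-testis gene, grouped as GAGE, XAGE, MAGE, other genes of X and autosomal genes. Both directions occur in GAGE, MAGE, other X and autosomal genes, and 8 of the 10 genes outside the GAGE, XAGE and MAGE families are lower.

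Necdin (NDN), which carries the MAGE domain outside the naming rule, was listed at 0 in all KO libraries, against 15.1, 17.0 and 8.81 in control replicates 1 to 3, and it was the 1 listed gene of a list of 4. None of 21 partners of MAGE proteins, TRIM28 and TRIM27 among them, and none of 40 genes of DNA methylation and silencing, DNMT1 and UHRF1 among them, was listed. With 5.87% of all tested genes listed, few or none would be listed from lists of this size, and the table holds only called genes, so these counts say nothing of smaller changes. Of 39 meiosis and piRNA genes 5 were listed, beside the same 5.87% of all tested genes and with both directions present as among all listed genes (60.1% higher, 39.9% lower): 2 were higher (PRDM9 and TDRD9) and 3 were lower (HENMT1, RNF212 and DMC1, the last named after its values were seen). HENMT1, which methylates piRNAs, averaged 3.71 ± 2.99 in KO and 136 ± 6.33 in control, and TDRD9, a piRNA pathway helicase, 22.2 ± 16.4 in KO and 0.331 ± 0.568 in control (SD, n = 3 each).

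Markers of other cell types moved too, at low values. Of 8 germ cell markers MAEL was listed, with 0.0340 to 0.874 normalized counts in KO and 7.02 to 14.8 in control, lower like GAGE2A; the autosomal list holds it too. The 2 of 5 fibroblast markers that were listed, LUM and PDGFRA, summed to 26.7 to 42.5 in KO and 2.01 to 8.49 in control, higher like XAGE2 and MAGEC2. The 2 of 4 leukocyte markers, CD3D and ITGAM, summed to 21.9 to 97.7 in KO and 5.62 to 20.03 in control. ITGAM had 17.9, 22.4 and 92.6 in KO replicates 1 to 3, against 5.62, 20.03 and 12.8 in control replicates 1 to 3, and its ratio of means of 3.46 was 1.57 without KO replicate 3. LUM and CD3D were at 0 in all controls, and ITGAM overlapped between the groups. No Sertoli, Leydig or trophoblast marker was listed. Of all tested genes 5.87% were listed, and these marker lists are too short to read against that share. The part of other cells in these results was not tested.

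By Pearson correlation of log2 of the normalized count + 1 over the 6 libraries, the listed genes most like GAGE2A were ZNF717 (r = 0.993), KCNN2 (r = 0.993) and DENND2A (r = 0.993). Those most like XAGE2 were PDLIM3 (r = 0.999), CRISPLD1 (r = 0.999) and POLM (r = 0.998). These libraries form 2 groups and the genes were listed for differing between them, so high values are common: 206 listed genes exceeded 0.9 with GAGE2A and 323 with XAGE2. KCNN2, a calcium-activated potassium channel gene, had 3.72, 1.61 and 4.42 normalized counts in KO replicates 1 to 3, against 90.8, 79.2 and 100.3 in control replicates 1 to 3. None of the 6 genes named for likeness is a member of the 3 families.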

How the data were processed

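RNA was sequenced from 3 miR-31 KO and 3 control libraries of K1 cells. Sample titles gave the groups and number 3 replicates, although the series' design text says duplicate. The submitters' processing notes name RSEM, HISAT and Bowtie2 and 2 builds, hg38 and hg19, without saying what each did. Which scaling and test the authors used is not given in the sources used here. The 6 library columns deposited by the authors were read as a signal, normalized counts scaled between libraries, judged from the values. The log2 fold change and the p-value columns, raw and adjusted, were also deposited by the authors and are the main result. Library depth is unknown, so no counting interval is given. The number of genes tested, 16806, is the ratio of adjusted to raw p for the gene with the smallest p, as Benjamini-Hochberg adjustment gives it. Values listed at 0 get no fold.

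The members and the 12 gene lists were chosen with earlier results of these data known. Named are all members, up to 4 listed genes per list by adjusted p, and the 3 genes most correlated with GAGE2A and with XAGE2. The promoter motifs and seed sites were searched after the members' directions were known. Refits used limma 3.58.1 in R 4.3.3 on log2 of the value + 1, with Benjamini-Hochberg adjustment over 16806 genes. The step was tested on data simulated from genes averaging at least 10, which does not cover lower members such as XAGE2 and MAGEA1. Their alternatives left out each library in turn, entered the replicate number as a block, used a pseudocount of 0.1, dropped genes averaging under 10, or quantile-normalized the columns. Other steps used Python 3.11.15 with pandas 2.3.3. Gene positions, transcripts and 3′ UTRs came from GENCODE release 29 and promoters and miRNA from RefSeq; the table itself has no coordinates.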

Additional observations from a re-analysis of the deposited data

How the results depend on the processing

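The authors' deposited table gave 5 higher and 4 lower members. An adjusted p under 0.01 left 3 higher and 4 lower, while a log2 fold change of 2 or more in either direction left 4 higher and 2 lower. The limma refit gave 2 and 2, a pseudocount of 0.1 gave 3 and 2, quantile normalization 2 and 3, and a mean of at least 10, which removes XAGE2 and MAGEA1, 1 and 2. Leaving out 1 library gave 1 to 2 higher and 2 to 2 lower members. The lowest came without KO replicate 1, where MAGEC2 had an adjusted p of 0.0578 at a log2 fold change of 2.91, against 3.11 in the full refit. Without KO replicate 2 MAGEC2 had 0.0536 at 3.15, and MAGEA1 then passed with 0.0234. Leaving out control replicate 1 and KO replicate 3 together, chosen after seeing the data, gave 2 and 2. With the replicate block the refit gave 2 and 2. Deviations of same-numbered libraries from their group means correlated at 0.202, -0.125 and 0.145 for replicates 1, 2 and 3. With 3 libraries per group these values cannot tell whether same-numbered libraries shared a culture or a batch, and the labels give only the number. For the 9 members, 106 refitted fold changes were computed: 48 kept the call, 58 lost it and 0 reversed. Quantile normalization moved the median log2 fold change of listed genes by -0.54, and none of the 9 members changed direction under it. The cause of the lost calls was not tested. Low normalized counts limit MAGEA1, XAGE2 and the KO values of GAGE2A, and the table gives no depth to set an error on them.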
